A study of Homo sapiens with 8 samples.

Results

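Homologous recombination and Fanconi repair genes were followed in MP38 uveal melanoma cells under HDAC and BET inhibition. The set was a fixed list of 36 gene symbols, all of which were found among the 35238 symbols of the count table, and all 36 were among the 15085 genes that passed the filter on low counts. MP38 is an established human uveal melanoma cell line with mutant BAP1, so every group shared this background. The 4 groups had 2 libraries each: cells kept for 24 h in 0.1% DMSO alone, or in the same solvent with romidepsin or quisinostat, both at 40 nM, or with 1200 nM of mivebresib. The first 2 drugs inhibit histone deacetylases (HDAC), the enzymes that strip acetyl groups from histones. Mivebresib keeps BET proteins, readers of those acetyl groups, off chromatin by occupying their bromodomains. The libraries came from duplicate wells of a single line, so p-values measure the spread between wells.

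Homologous recombination repairs a broken chromosome by copying the sister chromatid. Nucleases first trim the broken ends, the BRCA1 and BRCA2 complexes prepare the exposed strand, and further helpers and RAD54 proteins aid its invasion of the sister. The Fanconi pathway removes crosslinks between the DNA strands: a core complex puts ubiquitin on the FANCD2 and FANCI pair, which calls in nucleases and the recombination machinery. ATM and ATR are the kinases that signal the damage, and POLQ runs an error-prone end joining that competes with recombination. Many of these genes are transcribed mainly in S phase and carry binding sites for E2F factors in their promoters.

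The promoter words of such cell cycle genes were sought in RefSeq promoter windows (GRCh38.p14, 250 bases before to 50 after each start), in both strands. A window was on hand for 32 of the 36 members, with 45 windows in all. The E2F site was searched as TTTCCCGC, TTTCGCGC, TTTGCCGC or TTTGGCGC, and was found in EXO1, XRCC2, FANCA, FANCC and FANCD2. These 5 members made up 15.6% of the 32, against 3.99% of all genes with such a window and 6.36% of the genes tested. The sites are shown with their flanks, 5′ to 3′ on the strand of the gene and with the word in capitals, because EXO1 and FANCD2 had the lowest log2 fold change (FC) among members under quisinostat and mivebresib respectively.
EXO1, chr1:241848197-241848226, plus strand: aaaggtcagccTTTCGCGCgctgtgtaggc
FANCD2, chr3:10026424-10026453, plus strand: cgtcgggcctgGCGGGAAAgtcgaaaacta
XRCC2, chr7:152676102-152676131, minus strand: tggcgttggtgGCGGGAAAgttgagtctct
FANCC, chr9:95317737-95317766, minus strand: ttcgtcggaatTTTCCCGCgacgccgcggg
FANCA, chr16:89816801-89816830, minus strand: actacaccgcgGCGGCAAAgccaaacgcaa
In EXO1, FANCD2 and XRCC2 the word lay within annotated exon sequence at the start of the gene, and in FANCA it lay upstream of the exons. In FANCC it lay outside the exons but inside the annotated span of the gene, 95099054 to 95426796. FANCC held a further E2F word farther upstream.

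The CCAAT box (CCAAT) was found in 14 of the 32 members, or 43.8%, beside 39.7% of all genes and 43.1% of the genes tested. The cell cycle homology element (CHR, TTTGAA) was found in ATM, BRIP1, FANCC and POLQ, or 12.5% against 18.2% of all genes and 13.9% of the genes tested. The E-box (CACGTG) was in RAD50, BRCA2 and FANCC, or 9.38% beside 8.77% and 12.3%. In the windows of the members, 0 of these matches overlapped a match to another of the 4 motifs. Upstream stretches free of annotated exons are shown for BRIP1 and RAD54L, which were lower under each drug, and for RAD51B, which was higher under quisinostat. CCAAT boxes and CHR elements are in capitals on either strand, so that they also read ATTGG and TTCAAA.
BRIP1, chr17:61863529-61863778, minus strand: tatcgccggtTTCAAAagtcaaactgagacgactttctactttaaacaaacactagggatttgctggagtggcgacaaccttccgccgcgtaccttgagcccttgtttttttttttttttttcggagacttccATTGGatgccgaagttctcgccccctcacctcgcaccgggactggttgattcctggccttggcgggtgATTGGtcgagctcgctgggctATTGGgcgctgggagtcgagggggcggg
RAD54L, chr1:46247438-46247687, plus strand: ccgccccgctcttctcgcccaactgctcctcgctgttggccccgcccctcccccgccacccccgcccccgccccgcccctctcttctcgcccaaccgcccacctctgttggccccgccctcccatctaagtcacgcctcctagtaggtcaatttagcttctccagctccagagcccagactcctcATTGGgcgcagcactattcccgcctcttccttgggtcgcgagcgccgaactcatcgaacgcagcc
RAD51B, chr14:67823291-67823519, plus strand: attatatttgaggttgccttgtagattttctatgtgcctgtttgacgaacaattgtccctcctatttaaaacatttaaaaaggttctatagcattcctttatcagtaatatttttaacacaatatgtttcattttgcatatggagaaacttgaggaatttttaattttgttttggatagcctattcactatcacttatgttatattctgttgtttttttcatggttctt
No E2F, CHR or CCAAT word was found in the RAD51B stretch. A word match is a description of the reference sequence, and no binding was measured here.

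**Figure D1:**
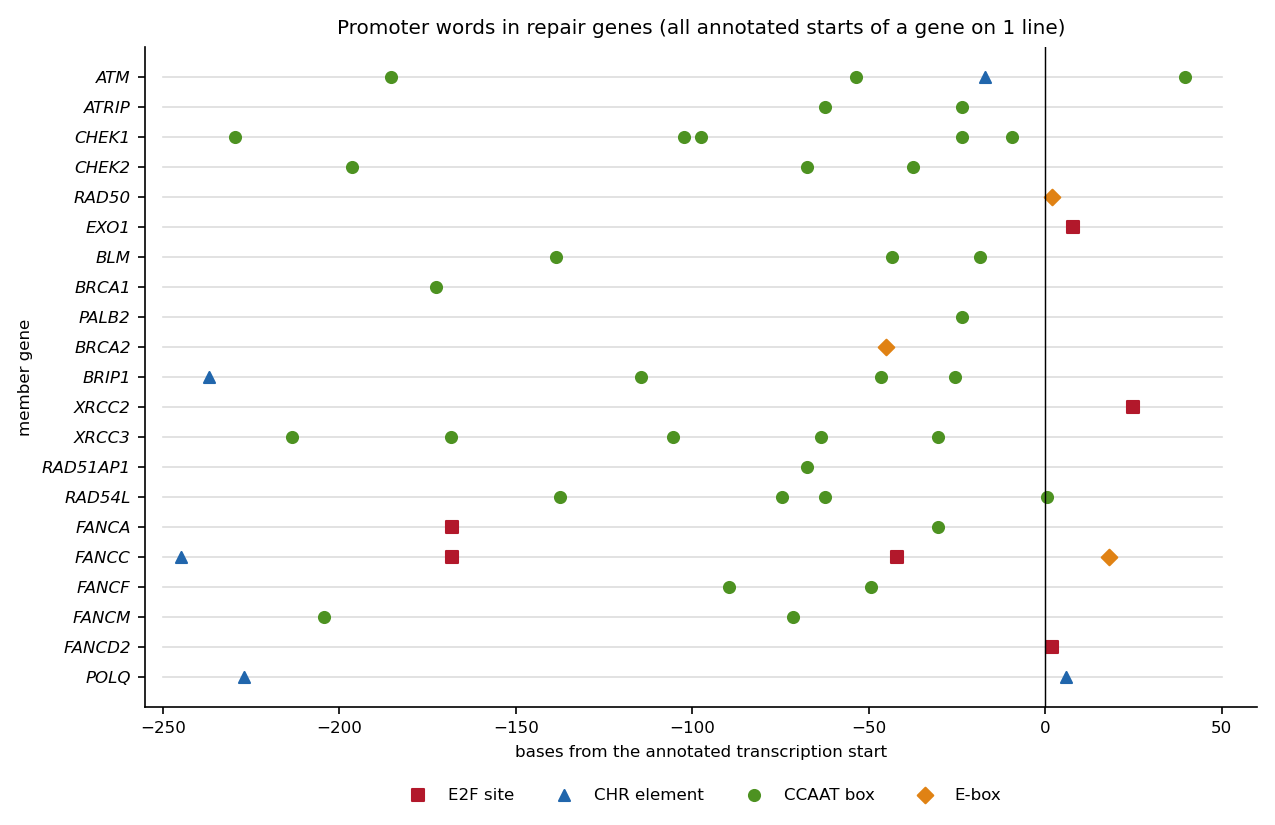
Positions of the 4 promoter words in the members that held any, with the distance from the annotated transcription start in bases on the x axis and 1 line per gene. Squares are E2F sites (5 genes), triangles CHR elements (4 genes), circles CCAAT boxes (14 genes) and diamonds E-boxes (3 genes); where a gene has several annotated starts, all are on its line.

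The 8 libraries held 28483235 to 29359024 counts, and the members had between 32 and 4942 counts in a library. The DMSO libraries stood farther apart than those of any drug, with a chi-square per degree of freedom of 58.1 against 9.52 to 9.79. The melanocytic genes PMEL, TYRP1, MLANA, MITF and SOX10 were present in every library, whereas TYR stayed at 1.51 to 3.51 CPM and DCT at or below 0.180 CPM. Summed marker levels of other cell types were 61.5 to 83.6 CPM for immune genes, most of it CD68, and 0.602 to 11.7 CPM for fibroblast, endothelial and epithelial genes. The fibroblast, endothelial and epithelial sums were highest with quisinostat, at 8.44 to 10.9, 5.16 to 5.83 and 11.4 to 11.7 CPM, against 1.98 to 2.48, 0.602 to 0.913 and 4.71 to 5.07 CPM with DMSO. Their part in the results was not tested.

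Per kilobase of the longest coding transcript in GENCODE 29, the members spanned a wide range of levels in DMSO cells. NBN was highest at 21.1 ± 0.468 CPM per kb (SD, n = 2), followed by RBBP8 at 17.7 ± 1.47, RAD50 at 15.6 ± 2.15 and FANCI at 15.3 ± 2.00. RBBP8, RAD50 and FANCI overlapped within their spread. RAD51B was lowest at 0.771 ± 0.183 CPM per kb, below POLQ at 1.16 ± 0.140 and BRCA2 at 1.28 ± 0.274, and the latter 2 did not differ beyond their spread.

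Each drug was compared with DMSO in a single edgeR quasi-likelihood model of all libraries, with TMM scaling and Benjamini-Hochberg adjustment over the 15085 genes, and a gene was called at an adjusted p below 0.05. Values per library are TMM-normalised CPM, the counts scaled to a common library size. The 3 comparisons share the DMSO libraries, so they are given side by side, and wherever 3 values stand together without a drug name they are in the order romidepsin, quisinostat, mivebresib. Bulk RNA cannot tell apart fewer cells that transcribe a gene and less of its RNA per cell.

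Under romidepsin 19 of the 36 members fell and 0 rose, where 15.8% of all genes tested were lower and 15.2% higher. The median log2 FC of the members was -0.42, against -0.01 over all genes. Under quisinostat 25 fell and 2 rose, where 25.1% of all genes were lower and 28% higher, with a median of -0.58 against -0.0036. Under mivebresib 16 fell and 3 rose, where 24.1% of all genes were lower and 22.2% higher, with a median of -0.26 against 0.0067. Only EXO1 and RAD54L under quisinostat passed a log2 FC of -1.5 as well, a mark that 0.312% of all genes passed under romidepsin, 1.03% under quisinostat and 4.36% under mivebresib. The split of all calls depended on scaling: the lower ones made up 50.9% under romidepsin and 47.3% under quisinostat, against 37.9% and 27.6% when scaled by library size alone and 36.6% and 34.6% with upper-quartile factors. Under library size alone the median of all genes under quisinostat was 0.20, and that of the members -0.38. Summed over the 36 members, the level was 958 and 1065 CPM with DMSO, 835 and 814 with romidepsin, 746 and 764 with quisinostat, and 877 and 922 with mivebresib.

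The median log2 FC of the members stayed below 0 under each drug whichever library was left out. It was lowest without DMSO replicate 1, at -0.49 for romidepsin, -0.65 for quisinostat and -0.32 for mivebresib. The highest medians were -0.33 for romidepsin without romidepsin replicate 2, -0.56 for quisinostat without DMSO replicate 2 and -0.21 for mivebresib without mivebresib replicate 1. The share of all genes called also moved between these fits, so counts of called members cannot be compared across them alone.

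**Figure D2:**
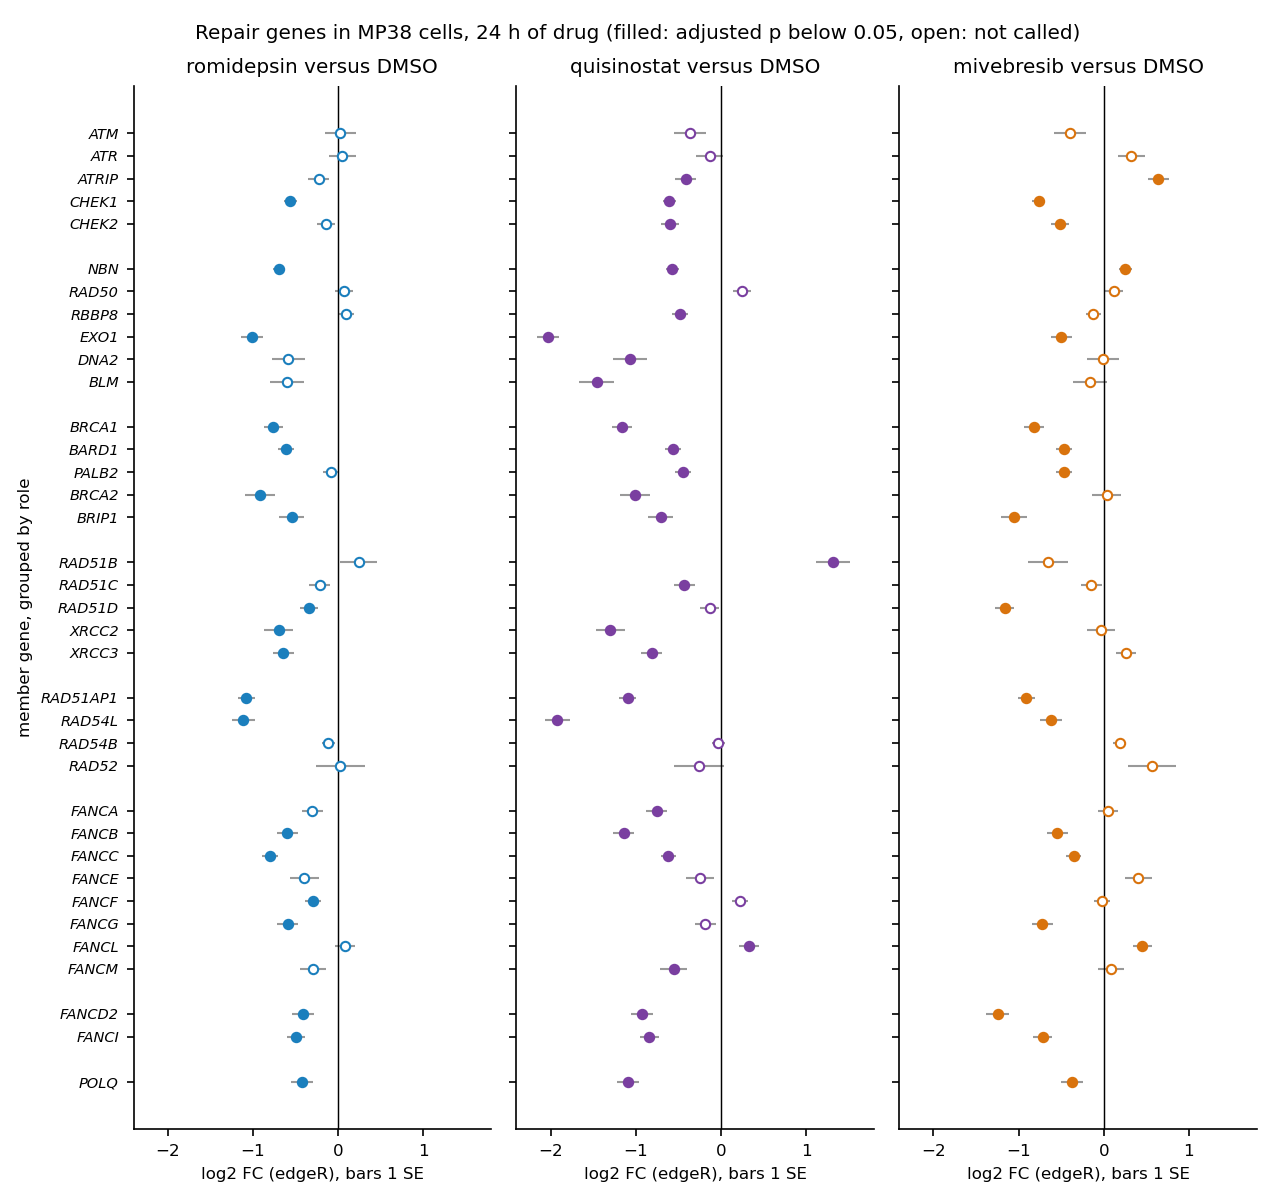
Log2 FC against DMSO of the 36 members (y axis, grouped by role) for romidepsin, quisinostat and mivebresib, with bars of 1 SE. Filled points passed the test and open points did not: 19, 25 and 16 members were called lower, and EXO1 and RAD54L under quisinostat lie farthest to the left.

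The damage kinases themselves were not called under any drug. ATM, the kinase that answers double-strand breaks, had 80.7 and 110.1 CPM with DMSO, 105 and 90.1 with romidepsin, 68.6 and 80.0 with quisinostat and 61.4 and 83.8 with mivebresib. The quisinostat libraries of ATM lay below the DMSO pair, and those of the other drugs overlapped it. ATM had a log2 FC of 0.03, -0.36 and -0.39 in the order of the drugs above, with 95% intervals of -0.39 to 0.45, -0.78 to 0.06 and -0.82 to 0.03. ATR, which answers stalled forks, had 29.9 and 43.4 CPM with DMSO, 39.8 and 36.1 with romidepsin, 32.5 and 34.4 with quisinostat and 43.0 and 48.7 with mivebresib, so every pair of ATR overlapped the DMSO pair. ATR had a log2 FC of 0.05, -0.13 and 0.32, with intervals of -0.31 to 0.42, -0.50 to 0.23 and -0.04 to 0.69.

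These 2 genes rested on single DMSO libraries. Without DMSO replicate 1, ATM was called lower under quisinostat (edgeR adjusted p = 0.0117) and mivebresib (0.0107), and ATR under quisinostat (0.0113). Without DMSO replicate 2, ATR was called higher under romidepsin (0.0254) and mivebresib (0.000757).

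ATRIP, the partner that brings ATR to coated single strands, went in opposite directions. It had 21.1 and 16.8 CPM with DMSO, 16.0 and 16.3 with romidepsin, 13.5 and 14.9 with quisinostat and 31.3 and 27.8 with mivebresib, so the mivebresib libraries were the highest and the quisinostat libraries the lowest. ATRIP had a log2 FC of -0.23 ± 0.13 (SE) for romidepsin (edgeR adjusted p = 0.198), -0.41 ± 0.13 for quisinostat (0.023) and 0.64 ± 0.12 for mivebresib (0.00305). The quisinostat call was not met without DMSO replicate 1 (0.112), quisinostat replicate 1 (0.146) or quisinostat replicate 2 (0.0504), and the gene was called lower under romidepsin without DMSO replicate 2 (0.0196). ATRIP shares 27.9% of its annotated exon bases with TREX1 on the same strand, so reads of the 2 genes may have been divided between them. TREX1 had a log2 FC of -0.65, -0.93 and 0.43.

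Of the effector kinases, CHEK1, which halts the cycle behind ATR, fell under each drug, with a log2 FC of -0.56, -0.61 and -0.77. CHEK2, its counterpart behind ATM, fell under quisinostat (-0.60) and mivebresib (-0.52) and had -0.14 under romidepsin (adjusted p = 0.327, edgeR).

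In the group that trims and processes broken ends, 2 of the 6 members fell under romidepsin, 5 under quisinostat and 1 under mivebresib, and NBN rose under mivebresib. EXO1, the nuclease of long-range resection, had 20.2 and 25.0 CPM with DMSO, 11.5 and 11.0 with romidepsin, 5.92 and 5.13 with quisinostat and 16.1 and 15.9 with mivebresib. Every treated library was below both DMSO libraries, and quisinostat gave the lowest pair. EXO1 had a log2 FC of -1.01 ± 0.13 (edgeR adjusted p = 0.000764), -2.03 ± 0.13 (8.16e-06) and -0.50 ± 0.12 (0.0104). The mivebresib call was not met without mivebresib replicate 2 (0.0607).

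BLM, the helicase that works with the resection nucleases and dissolves joined chromosomes, had 10.8 and 11.0 CPM with DMSO, 8.93 and 5.44 with romidepsin, 3.77 and 4.14 with quisinostat and 9.98 and 9.46 with mivebresib. The quisinostat libraries were far below the rest, and the 2 romidepsin libraries disagreed. BLM fell under quisinostat by 1.46 on the log2 scale (SE 0.21, edgeR adjusted p = 0.000541). Its log2 FC under romidepsin was -0.60 (0.0515), called without romidepsin replicate 1 (0.00766), and under mivebresib -0.16 (0.527).

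NBN, the subunit of the MRE11 complex that carries the signal to ATM, had 96.9 and 99.98 CPM with DMSO, 60.4 and 61.5 with romidepsin, 68.4 and 64.1 with quisinostat and 118 and 117 with mivebresib. The HDAC inhibitor libraries lay below DMSO and the mivebresib libraries above it. NBN had a log2 FC of -0.69 ± 0.07 (edgeR adjusted p = 0.000387), -0.57 ± 0.07 (0.000299) and 0.25 ± 0.07 (0.0207). The mivebresib call was not met without mivebresib replicate 1 (0.0883) or replicate 2 (0.0849). RAD50, the other subunit of that complex on the list, was not called, with a log2 FC of 0.07, 0.25 and 0.12. The annotated gene AC116366.3 covers 79.7% of the exon bases of RAD50 on the same strand. Without DMSO replicate 2 RAD50 was called higher under quisinostat (0.00367) and mivebresib (0.0322).

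RBBP8 (CtIP), which starts resection, and DNA2, a resection nuclease, fell under quisinostat with a log2 FC of -0.48 and -1.07. DNA2 had -0.58 under romidepsin (edgeR adjusted p = 0.0519), called without DMSO replicate 1 (0.00884) or romidepsin replicate 1 (0.0457), and -0.01 under mivebresib. RBBP8 had 0.10 and -0.12 under these drugs.

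**Figure D3:**
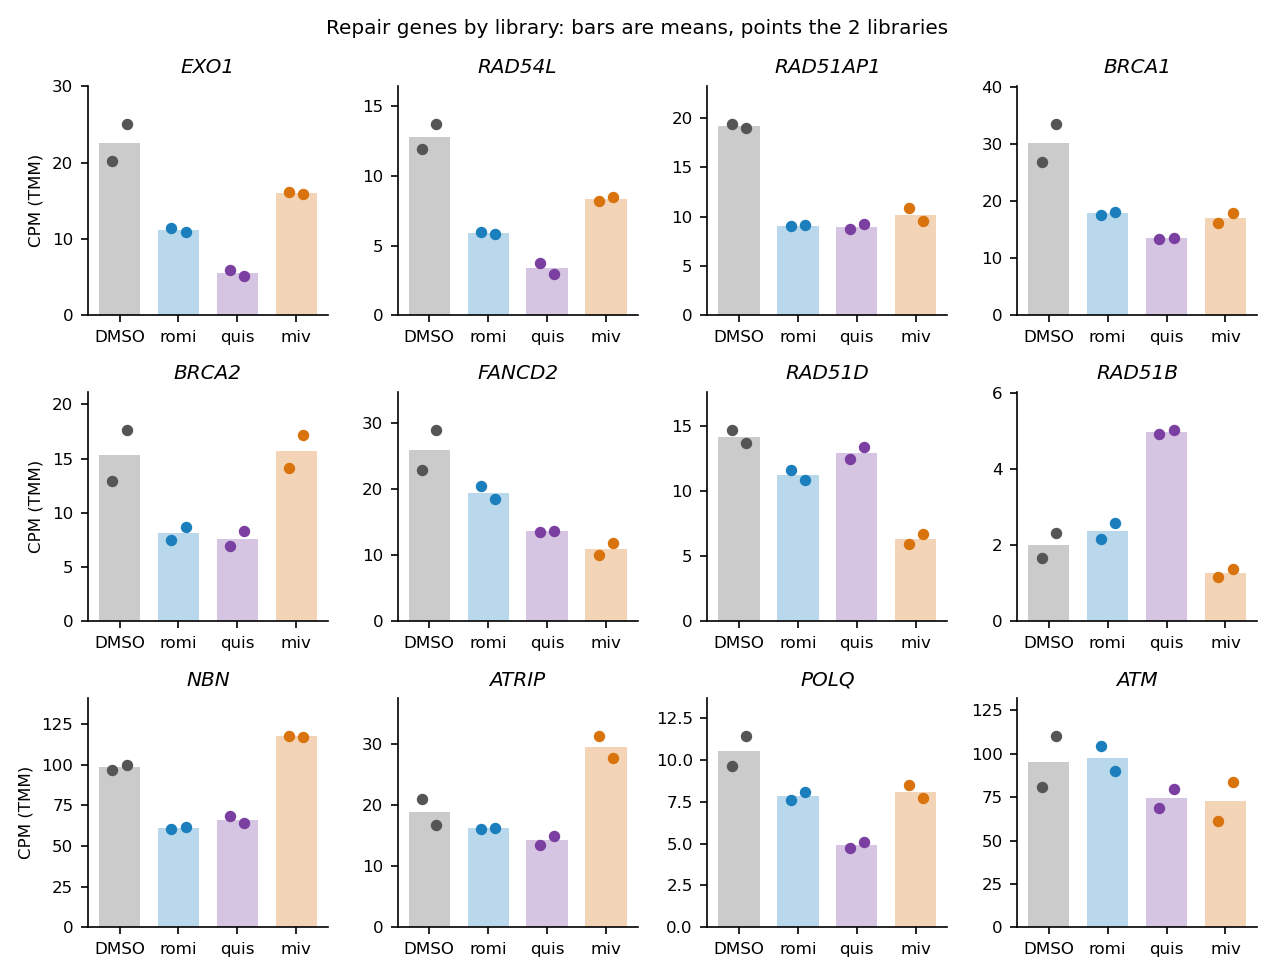
TMM-normalised CPM of 12 members in each of the 8 libraries, with the y axis from 0, bars at the mean of a group and points at its 2 libraries (romi, romidepsin; quis, quisinostat; miv, mivebresib). EXO1 drops from 20.2 and 25.0 CPM with DMSO to 5.92 and 5.13 with quisinostat, BRCA2 is low in both HDAC inhibitor groups alone, and RAD51B is highest with quisinostat.

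The BRCA mediators act on the trimmed ends. Of the 5, 4 fell under romidepsin, 5 under quisinostat and 4 under mivebresib. BRCA1, which directs repair toward recombination, had 26.9 and 33.5 CPM with DMSO, 17.7 and 18.1 with romidepsin, 13.4 and 13.6 with quisinostat and 16.3 and 17.9 with mivebresib. All 6 treated libraries were below both DMSO libraries, and the DMSO libraries were the most spread. BRCA1 had a log2 FC of -0.76 ± 0.12 (edgeR adjusted p = 0.00202), -1.16 ± 0.12 (7.88e-05) and -0.82 ± 0.12 (0.000593). Its ubiquitin ligase partner BARD1 fell with it, by -0.61, -0.56 and -0.47.

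BRCA2, a mediator of strand exchange, split the drugs. It had 13.0 and 17.6 CPM with DMSO, 7.49 and 8.71 with romidepsin, 6.90 and 8.31 with quisinostat and 14.2 and 17.2 with mivebresib. Both HDAC inhibitors left it below the DMSO range, and the mivebresib libraries lay inside that range. BRCA2 had a log2 FC of -0.92 ± 0.18 (edgeR adjusted p = 0.00623), -1.01 ± 0.18 (0.00177) and 0.04 ± 0.17 (0.886). The romidepsin call was not met without romidepsin replicate 1 (0.0578).

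PALB2, which bridges BRCA1 and BRCA2, had a log2 FC of -0.08 under romidepsin (edgeR adjusted p = 0.528) and fell under quisinostat (-0.44) and mivebresib (-0.47). BRIP1, the BRCA1-bound helicase, had 12.8 and 16.1 CPM with DMSO, 10.9 and 8.95 with romidepsin, 9.40 and 8.31 with quisinostat and 6.84 and 7.12 with mivebresib, the mivebresib pair being lowest. BRIP1 had a log2 FC of -0.54 ± 0.15 (0.0248), -0.71 ± 0.15 (0.00398) and -1.05 ± 0.15 (0.000699). The romidepsin call of BRIP1 was not met without DMSO replicate 2 (0.0674) or romidepsin replicate 2 (0.147).

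RAD51B, RAD51C, RAD51D, XRCC2 and XRCC3 form 2 paralog complexes that aid strand exchange, and their genes did not move as a block. Of the 5 members 3 fell under romidepsin, 3 fell and RAD51B rose under quisinostat, and RAD51D alone fell under mivebresib. RAD51B had 1.67 and 2.34 CPM with DMSO, 2.16 and 2.58 with romidepsin, 4.94 and 5.03 with quisinostat and 1.17 and 1.37 with mivebresib. The quisinostat libraries were above all others and the mivebresib libraries below all others. RAD51B had a log2 FC of 0.25 ± 0.22 (edgeR adjusted p = 0.417), 1.32 ± 0.20 (0.000777) and -0.65 ± 0.24 (0.0511), and the last was called without DMSO replicate 1 (0.0176). RAD51B had the fewest counts and, at 910440 bases, the longest span among the members.

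RAD51D, which sits in a complex with RAD51B, had 14.7 and 13.7 CPM with DMSO, 11.6 and 10.8 with romidepsin, 12.4 and 13.4 with quisinostat and 5.93 and 6.73 with mivebresib. The mivebresib pair stood well below the rest. RAD51D fell under mivebresib by 1.16 on the log2 scale (SE 0.11, edgeR adjusted p = 8.68e-05). Its log2 FC was -0.34 under romidepsin (0.0454), a call not met in 7 of the 8 fits that left out a library (0.052 to 0.199), DMSO replicate 2 being the exception, and -0.13 under quisinostat (0.324).

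XRCC2, the partner of RAD51D, had 13.2 and 14.8 CPM with DMSO, 9.65 and 7.61 with romidepsin, 5.16 and 6.21 with quisinostat and 12.03 and 15.2 with mivebresib. Its HDAC inhibitor libraries were below the DMSO pair and its mivebresib libraries spanned it. XRCC2 had a log2 FC of -0.70 ± 0.17 (edgeR adjusted p = 0.0147), -1.30 ± 0.17 (0.000339) and -0.04 ± 0.16 (0.878), and the romidepsin call was not met without romidepsin replicate 2 (0.0998).

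XRCC3 fell under both HDAC inhibitors (-0.64 and -0.81) and had 0.26 under mivebresib (edgeR adjusted p = 0.103), called without DMSO replicate 1 (0.0221). KLC1 on the opposite strand covers 76.7% of the annotated exon bases of XRCC3, so its counts are uncertain if strand was not used in counting. KLC1 had a log2 FC of 0.16, -0.16 and 0.51.

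RAD51C, which sits in both paralog complexes, had 35.4 and 29.5 CPM with DMSO, 26.6 and 29.3 with romidepsin, 26.2 and 22.0 with quisinostat and 30.8 and 27.9 with mivebresib. Both quisinostat libraries lay below both DMSO libraries, as did both romidepsin libraries, and the mivebresib pair overlapped DMSO. RAD51C had a log2 FC of -0.22 (edgeR adjusted p = 0.217), -0.43 (0.0184) and -0.14 (0.37). The quisinostat call was not met without DMSO replicate 1 (0.055) or quisinostat replicate 2 (0.126), and RAD51C was called lower under romidepsin without DMSO replicate 2 (0.0393).

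Of the 4 cofactors of strand exchange and annealing, RAD54L and RAD51AP1 fell under each drug, and RAD54B and RAD52 were not called under any. RAD54L, the motor that drives strand invasion, had 11.9 and 13.7 CPM with DMSO, 6.01 and 5.82 with romidepsin, 3.77 and 2.99 with quisinostat and 8.23 and 8.45 with mivebresib. The 4 groups did not overlap. RAD54L had a log2 FC of -1.11 ± 0.14 (edgeR adjusted p = 0.000717), -1.92 ± 0.14 (1.55e-05) and -0.62 ± 0.13 (0.00537). LRRC41 lies on the opposite strand over 25.1% of the exon bases of RAD54L and had a log2 FC of -0.37, -0.50 and -0.84.

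RAD51AP1, which aids joint formation, had 19.3 and 18.9 CPM with DMSO, 9.03 and 9.13 with romidepsin, 8.71 and 9.23 with quisinostat and 10.8 and 9.53 with mivebresib. All treated libraries were near each other, well below DMSO. RAD51AP1 had a log2 FC of -1.08 ± 0.10 (edgeR adjusted p = 0.000226), -1.09 ± 0.10 (5.19e-05) and -0.91 ± 0.10 (0.00017).

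RAD52, which anneals single strands, had a log2 FC of 0.03, -0.26 and 0.57 with SEs of 0.28 to 0.29, and was called higher under mivebresib without DMSO replicate 1 (edgeR adjusted p = 0.0305) or mivebresib replicate 1 (0.0248). RAD54B, a relative of RAD54L, had -0.12, -0.03 and 0.19. FSBP covers 59.1% of its exon bases on the same strand.

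In the Fanconi core complex, the ubiquitin ligase assembly, 4 of the 8 members fell under romidepsin. Under quisinostat 4 fell and FANCL rose, and under mivebresib 3 fell and FANCL rose. FANCL, the ligase subunit, had 9.64 and 9.61 CPM with DMSO, 10.1 and 10.3 with romidepsin, 11.1 and 13.1 with quisinostat and 13.8 and 12.6 with mivebresib. All treated libraries were above DMSO. FANCL had a log2 FC of 0.09 ± 0.12 (edgeR adjusted p = 0.6), 0.33 ± 0.11 (0.0374) and 0.45 ± 0.11 (0.0113). The quisinostat call was not met in 7 of the 8 fits that left out a library (0.0511 to 0.286), quisinostat replicate 1 being the exception, and the mivebresib call was not met without mivebresib replicate 1 (0.0739). VRK2 lies on the opposite strand over 18.7% of the exon bases of FANCL and had a log2 FC of -0.17, -0.15 and 0.13.

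FANCC had 18.0 and 19.4 CPM with DMSO, 10.5 and 11.0 with romidepsin, 12.2 and 12.2 with quisinostat and 15.0 and 14.2 with mivebresib, and the groups did not overlap. FANCC had a log2 FC of -0.80 ± 0.09 (edgeR adjusted p = 0.000573), -0.61 ± 0.09 (0.000672) and -0.35 ± 0.09 (0.0131), and the mivebresib call was not met without mivebresib replicate 2 (0.0781).

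FANCF, an adaptor of the complex, had 22.4 and 20.6 CPM with DMSO, 17.4 and 17.7 with romidepsin, 26.0 and 24.3 with quisinostat and 22.5 and 19.9 with mivebresib, so the HDAC inhibitor groups lay on either side of DMSO. FANCF had a log2 FC of -0.29 (edgeR adjusted p = 0.0498), 0.23 (0.0742) and -0.02 (0.894). The romidepsin call of FANCF was not met in 7 of the 8 fits that left out a library (0.055 to 0.21), DMSO replicate 2 being the exception, and the gene was called higher under quisinostat without DMSO replicate 1 (0.0436).

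Of the other core genes, FANCB fell under each drug, with a log2 FC of -0.59, -1.14 and -0.55. Its romidepsin call was not met without romidepsin replicate 1 (edgeR adjusted p = 0.0607). FANCG fell under romidepsin (-0.59) and mivebresib (-0.72), with -0.18 under quisinostat, and its romidepsin call was not met without romidepsin replicate 1 (0.0732). FANCA and FANCM, the latter a DNA translocase, fell under quisinostat (-0.76 and -0.55) and had -0.30 and -0.29 under romidepsin and 0.05 and 0.09 under mivebresib, none of these called, and FANCE was not called under any drug (-0.39, -0.24 and 0.41). The call for FANCM was not met without DMSO replicate 2 (0.0518) or quisinostat replicate 1 (0.118), and FANCM was called lower under romidepsin without DMSO replicate 1 (0.0377). ZNF276 covers 23.6% of the exon bases of FANCA on the opposite strand.

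The substrate pair fell under each drug. FANCD2 had 22.9 and 28.9 CPM with DMSO, 20.4 and 18.5 with romidepsin, 13.5 and 13.7 with quisinostat and 9.98 and 11.8 with mivebresib. No treated library reached the lower DMSO library, and the mivebresib pair was lowest. FANCD2 had a log2 FC of -0.41 ± 0.13 (edgeR adjusted p = 0.044), -0.93 ± 0.13 (0.000543) and -1.24 ± 0.14 (0.000157). The romidepsin call of FANCD2 was not met in 7 of the 8 fits that left out a library (0.0535 to 0.199), DMSO replicate 1 being the exception. FANCI had a log2 FC of -0.49, -0.84 and -0.72, and its romidepsin call was not met without romidepsin replicate 2 (0.0779). POLG shares 5.9% of the exon bases of FANCI on the opposite strand and moved otherwise, with -0.72, -1.17 and 1.05.

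POLQ, the polymerase of theta-mediated end joining, had 9.60 and 11.4 CPM with DMSO, 7.59 and 8.09 with romidepsin, 4.75 and 5.09 with quisinostat and 8.49 and 7.70 with mivebresib. The quisinostat pair was lowest and every treated library was below DMSO. POLQ had a log2 FC of -0.42 ± 0.13 (edgeR adjusted p = 0.0367), -1.09 ± 0.13 (0.000206) and -0.38 ± 0.13 (0.0399). The romidepsin and mivebresib calls were not met in 7 of the 8 fits that left out a library (0.0513 to 0.189 and 0.0603 to 0.186), DMSO replicate 1 being the exception in both.

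Drugs were then compared with each other directly, which does not pass through the DMSO levels. Romidepsin and quisinostat were given at the same dose, 40 nM, for the same 24 h. The paper reports romidepsin as the more potent of them against the viability of MP38 cells, so their difference holds for the doses used. Quisinostat was lower than romidepsin for 13 members and higher for 3, where 14.6% and 21% of all genes were lower and higher, and the median log2 difference was -0.20 against 0.06 over all genes. EXO1 was lower by -1.02 ± 0.14 (edgeR adjusted p = 0.000907), BLM by -0.86 ± 0.21 (0.015), RAD54L by -0.81 ± 0.15 (0.00413) and POLQ by -0.67 ± 0.13 (0.00557). The 3 that were higher with quisinostat were RAD51B (1.07 ± 0.20, 0.00399), FANCF (0.52 ± 0.10, 0.004) and FANCG (0.41 ± 0.12, 0.0319). RAD51AP1 differed by -0.02, BARD1 by 0.06 and CHEK1 by -0.05, each not called, with SEs of 0.08 to 0.11. The number lower dropped to 5 without either quisinostat library, to 6 without romidepsin replicate 1 and to 7 without romidepsin replicate 2. In those 4 fits 6.98% to 7.8% of all genes were called lower. FANCG was not called without either romidepsin (0.203 and 0.0614) or either quisinostat library (0.239 and 0.0533), nor BLM without romidepsin replicate 1 (0.0792) or either quisinostat library (0.0913 and 0.0559).

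Mivebresib differed in dose from both HDAC inhibitors, so its differences from them also hold for the doses used. Mivebresib was higher than quisinostat for 20 members and lower for 3, where 26.2% and 31.5% of all genes were higher and lower. The median log2 difference was 0.31 against -0.03 over all genes. EXO1 (1.53 ± 0.13, edgeR adjusted p = 2.97e-05), RAD54L (1.30 ± 0.15, 0.000116), BLM (1.30 ± 0.21, 0.000896), XRCC2 (1.26 ± 0.17, 0.000336), ATRIP (1.05 ± 0.12, 0.000152) and BRCA2 (1.04 ± 0.18, 0.00123) were among those higher with mivebresib. RAD51B (-1.97 ± 0.22, 9.91e-05), RAD51D (-1.03 ± 0.11, 0.000105) and FANCG (-0.54 ± 0.12, 0.00555) were lower. The number higher was 12 without quisinostat replicate 1, where 18.3% of all genes were higher, and the number lower was 6 without either DMSO library, where 34.4% of all genes were lower.

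Against romidepsin, mivebresib was higher for 14 members and lower for 6, where 23.7% and 25.2% of all genes were higher and lower, with a median log2 difference of 0.22 against 0.01 over all genes. BRCA2 (0.95 ± 0.18, edgeR adjusted p = 0.00261), NBN (0.95 ± 0.07, 2.51e-05), XRCC3 (0.90 ± 0.12, 0.000436) and ATRIP (0.87 ± 0.12, 0.000586) were higher with mivebresib. RAD51B (-0.90 ± 0.23, 0.0118), FANCD2 (-0.83 ± 0.14, 0.00128), RAD51D (-0.83 ± 0.12, 0.000523) and BRIP1 (-0.51 ± 0.15, 0.0251) were lower. The number higher was 6 without romidepsin replicate 2 and 9 without mivebresib replicate 2, where 15.9% and 16.9% of all genes were higher. The number lower was 2 without mivebresib replicate 1, 3 without romidepsin replicate 2 and 10 without either DMSO library, where 18.8%, 18.7% and 28.3% to 29.3% of all genes were lower. RAD51B was not called without romidepsin replicate 2 (0.0726) or mivebresib replicate 1 (0.0715), nor BRIP1 without romidepsin replicate 1 (0.166) or either mivebresib library (0.11 and 0.0834).

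**Figure D4:**
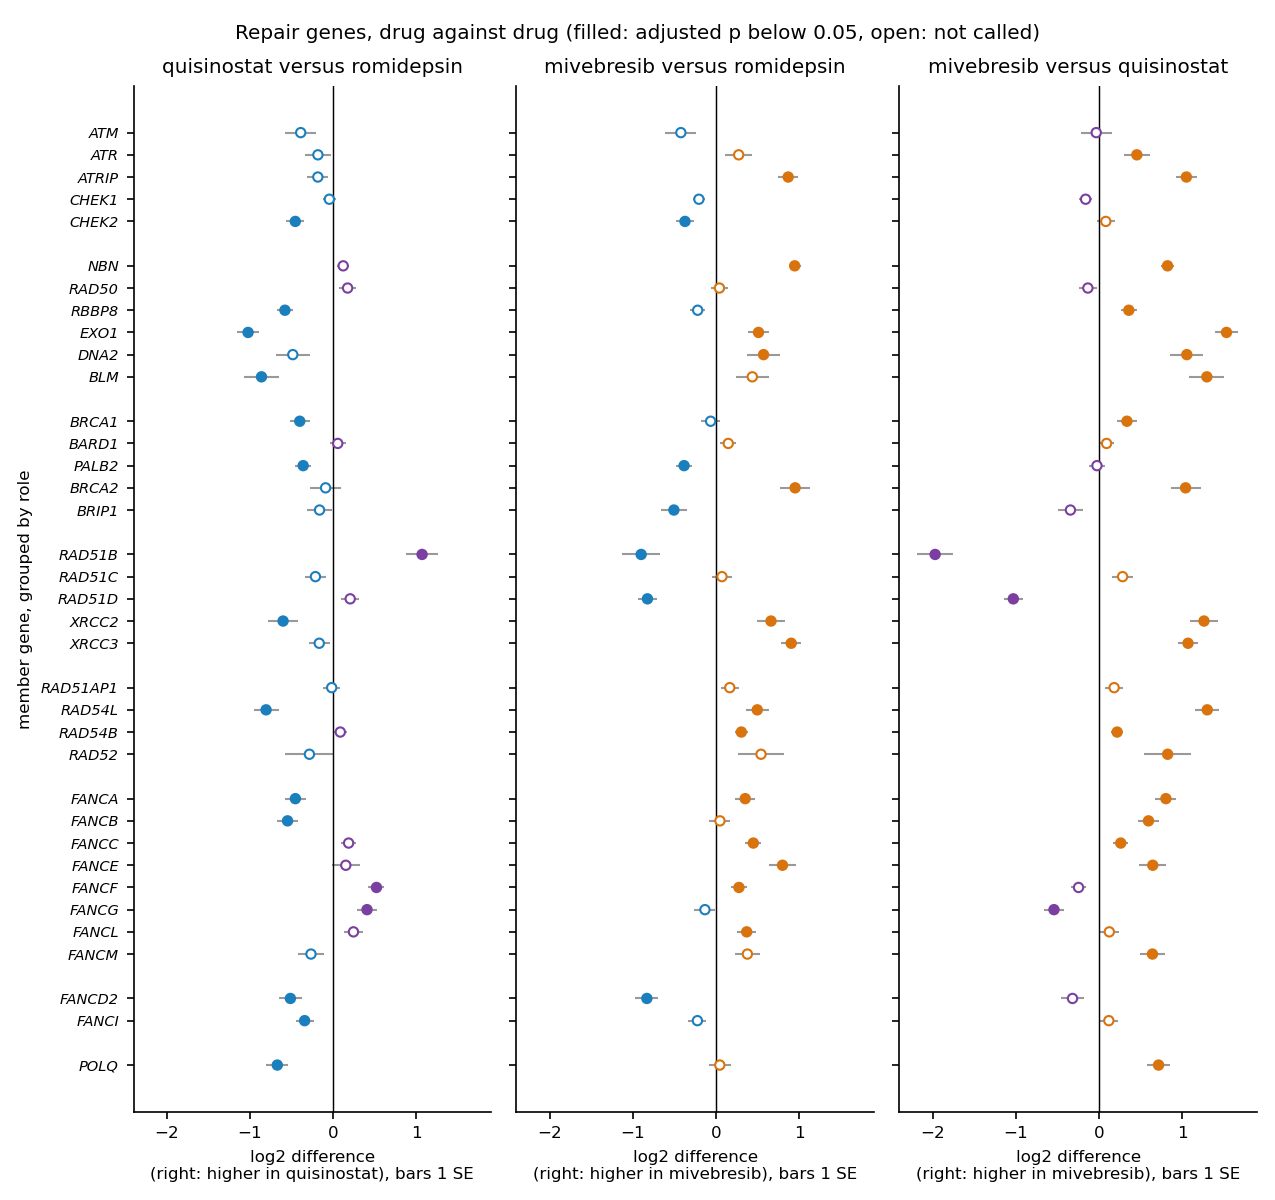
Log2 difference between drugs for the 36 members (y axis, grouped by role), with bars of 1 SE, filled where the adjusted p was below 0.05 and coloured by the drug with the higher level. Quisinostat was below romidepsin for 13 members and mivebresib above quisinostat for 20, and RAD51B lies at -1.97 in the last panel.

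Other genes of these pathways were counted from lists beside the members. Over all genes 15.8%, 25.1% and 24.1% were lower and 15.2%, 28% and 22.2% higher, against which these lists are to be read. Of 49 further homologous recombination and Fanconi genes, 23 fell and 1 rose under romidepsin, 22 fell and 3 rose under quisinostat, and 16 fell and 8 rose under mivebresib. TONSL, which acts at stalled forks, fell under romidepsin (-1.18) and quisinostat (-2.02). ABRAXAS1, a scaffold of the BRCA1-A complex, rose under all 3 drugs, with a log2 FC of 0.56, 1.28 and 1.34, and SLX4, a nuclease scaffold, rose under mivebresib (1.07). The nuclease MUS81 fell under all 3 (-0.34, -0.33 and -1.11).

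Of 20 signalling partners of ATR and ATM, 12 fell and 0 rose under romidepsin, 12 fell and 1 rose under quisinostat, and 5 fell and 2 rose under mivebresib, the last near or below the shares over all genes. CLSPN (claspin), which hands CHEK1 to ATR, fell under romidepsin (-1.21) and quisinostat (-2.10), as did the fork protein TIMELESS (-0.68 and -1.86). The phosphatase CDC25A fell under all 3 (-1.24, -1.48 and -1.31), as did TOPBP1, an activator of ATR (-0.40, -0.71 and -0.83). RAD17, the clamp loader of the checkpoint, rose under quisinostat (0.35) and mivebresib (0.36).

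Genes of 2 other repair routes were counted as well. Of 14 genes of non-homologous end joining, 5 fell and 0 rose under romidepsin, 4 fell and 3 rose under quisinostat, and 4 fell and 3 rose under mivebresib. Of 19 genes of nucleotide excision repair, 3 fell and 2 rose, 8 fell and 7 rose, and 7 fell and 3 rose. The medians of both lists lay between -0.13 and 0.02 in all 3 comparisons.

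The proliferation lists moved along with the members. Of 40 genes of S phase replication, 37 fell under romidepsin, 39 under quisinostat and 29 under mivebresib, with median log2 FCs of -0.77, -1.28 and -0.59, and 1 rose under mivebresib. Of 30 mitotic genes, 28, 27 and 27 fell, with medians of -0.72, -1.05 and -0.68. The summed S phase level was 2452 and 2503 CPM with DMSO, 1371 and 1377 with romidepsin, 1021 and 1007 with quisinostat and 1823 and 1795 with mivebresib. MKI67, a mark of cycling cells, had a log2 FC of -0.68, -1.53 and -0.66, and the sliding clamp PCNA -0.47, -0.87 and -0.11, the last not called (edgeR adjusted p = 0.272). The part of the cell cycle in the levels of the repair genes was not tested.

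Among regulators, E2F1 fell under each drug (log2 FC -1.21, -1.88 and -0.78), as did MYBL2 (-1.48, -2.69 and -1.35). The repressor E2F7 rose under quisinostat (0.81) and mivebresib (1.39). E2F8 fell under romidepsin (-1.49) and mivebresib (-2.65) and was also below 0 under quisinostat. CDK12, a kinase needed for the expression of long repair genes, fell under romidepsin (-0.46) and quisinostat (-0.62) and had -0.01 under mivebresib (edgeR adjusted p = 0.958). BRD2, a target of mivebresib, rose under it (1.15). The 5 members with an E2F word had median log2 FCs of -0.70, -0.93 and -0.35 for romidepsin, quisinostat and mivebresib, and the 27 without had -0.34, -0.48 and -0.38. Of those 5, 4, 5 and 3 fell, and of the 27, 13, 17 and 12, where 15.8%, 25.1% and 24.1% of all genes were lower. With 5 genes in 1 of the 2 sets, the part of E2F factors in these changes was not tested.

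Gene length was set against the changes, as the members span 2952 bases (FANCF) to 910440 bases (RAD51B). Lengths were taken on the log10 scale for every Pearson's r. Across the 36 members, Pearson's r between the span and the log2 FC was 0.29, 0.15 and -0.09 for the 3 drugs, with Spearman's rho of 0.29, 0.08 and -0.01. The coding length gave r of 0.04, -0.23 and -0.03. Genes are not independent replicates, and these values are a description.

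The difference between the 2 libraries of a group was also set against length. For the DMSO pair, replicate 2 minus replicate 1 on the log2 scale had r of 0.63 and rho of 0.63 with the log10 coding length across the 36 members. Across the 13794 genes tested that had a coding length, these were 0.36 and 0.45. The same r among members was -0.11, 0.17 and 0.23 for the pairs of the 3 drugs, with rho of -0.09, 0.14 and 0.35. Over all genes with a coding length these pairs gave r of -0.19, 0.22 and 0.15 and rho of -0.30, 0.35 and 0.27, so a relation with length was not particular to DMSO. Long members such as ATR (0.54), ATM (0.45) and BRCA2 (0.44) were higher in DMSO replicate 2, and RAD52 (-0.58), ATRIP (-0.33) and XRCC3 (-0.29) were lower. Not all members followed length, as RAD51B with a coding length of 1275 bases had 0.47 and POLQ with 8175 bases 0.25. The uncalled differences of ATM and ATR therefore stand beside a DMSO pair that is itself apart, and the part of this spread in them was not tested.

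**Figure D5:**
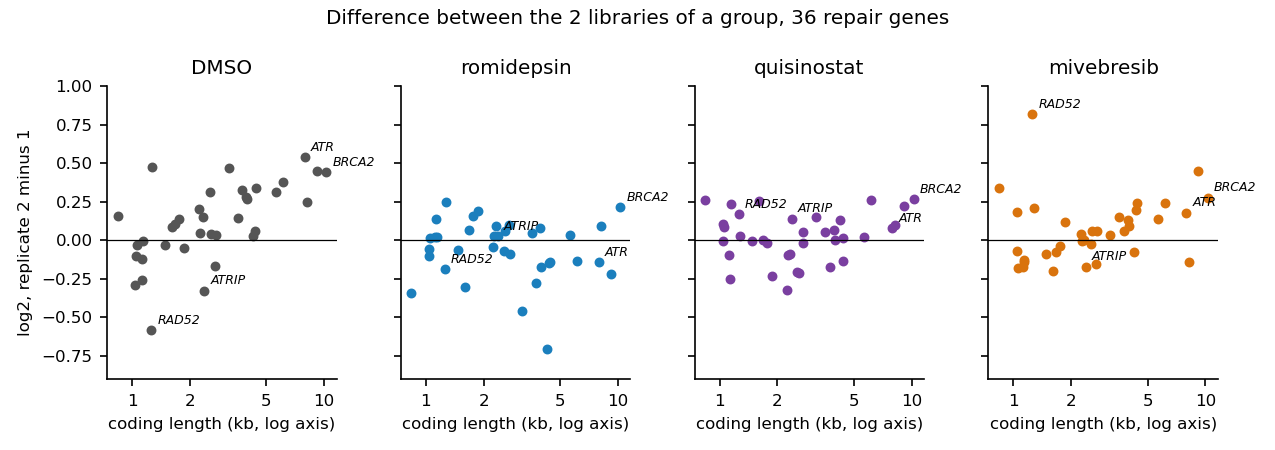
Log2 difference between the 2 libraries of each group (y axis) against the longest coding length of the 36 members (x axis, kb, log scale). In the DMSO panel long genes such as ATR (0.54) lie above 0 and RAD52 (-0.58) below it, with r of 0.63, and the drug panels show r between -0.11 and 0.23.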

How the data were processed

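Bulk RNA of 8 MP38 libraries, from wells in duplicate, was sequenced from a strand-specific mRNA library. Per the labels the genome was hg38. The authors made the files with BioJupies, and the aligner, annotation and strand setting are not given in the sources used here. They deposited raw counts per gene symbol, a log10 table equal to log10(CPM + 1) of those counts, and a quantile-normalized score of unnamed scale. Groups came from the labels.

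The counts were fitted with edgeR 4.0.16 in R 4.3.3 (TMM, filterByExpr by group, 1 model of 8 libraries, quasi-likelihood test, Benjamini-Hochberg adjustment over 15085 genes), without a replicate term. The fit was tested on simulated data with known changes. Alternatives used DESeq2 1.42.0, limma 3.58.1, other scalings, filters, samples and thresholds, and each library left out. Exon overlaps and lengths came from GENCODE 29, and promoters from RefSeq. Python 3.11.15, pandas 2.3.3, scipy 1.17.1 and matplotlib 3.10.9 were used.

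The 36 members and all lists were chosen with earlier results of these data known, so no list was tested as a set. Every member could be named. Values in every library are given for the 4 lowest and 4 highest called members per drug, members called in opposite directions, and BRCA1, BRCA2, ATM, ATR, FANCD2 and POLQ. Of other lists, only the 3 lowest and 3 highest called genes per drug, MKI67, PCNA and regulators were nameable, and some of these are not reported here. Most overlapping genes are given with the members. In addition, ATR shares 16.4% of its exon bases with AC109992.1, FANCF 11.3% with GAS2 and CHEK2 6.7% with HSCB, all on the opposite strand, and RAD51D 8.01% with a readthrough gene on the same strand. Overlaps not named cover at most 5.56%. With 2 libraries a group, their number limits precision more than depth.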

Additional observations from a re-analysis of the deposited data

How the results depend on the processing

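Over the alternatives, 3300 of 3666 values for single members stayed on their side of the threshold, 266 lost and 100 gained a call, 0 called values turned and 62 uncalled values changed sign. Of the calls against DMSO, 9 of 19 under romidepsin, 22 of 27 under quisinostat and 14 of 19 under mivebresib were met in every alternative except the stricter p and quantile-table limma, each left-out library included. The causes of the changes given here were not tested. Under library size alone the member medians were -0.38 for quisinostat, -0.070 for quisinostat against romidepsin, 0.17 for mivebresib against romidepsin and 0.13 for mivebresib against quisinostat. The counts were then 4 higher under quisinostat, where 37.3% of all genes were higher. For quisinostat against romidepsin 7 were higher and 7 lower, where 28.6% and 8.6% of all genes were. For mivebresib against quisinostat 8 were lower, where 39.4% of all genes were. With upper-quartile factors the medians were -0.45 for quisinostat, 0.18 for mivebresib against romidepsin and 0.23 for mivebresib against quisinostat. Then 4 were higher under quisinostat, 5 higher under mivebresib and 7 lower for mivebresib against quisinostat. The shares over all genes were 33.5%, 24.6% and 35.1% in that order. The filter on genes of a mean CPM of at least 5 leaves out RAD51B. The medians were then -0.50 for quisinostat, -0.13 for mivebresib and 0.27 for mivebresib against quisinostat. Under mivebresib 5 were higher, beside 25.7% of all genes, and 5 were lower for mivebresib against quisinostat, beside 29.8%. With DESeq2, and with no filter, 1 member was higher under quisinostat, where 21.3% and 17.6% of all genes were. In fits of only the 4 libraries compared, 1 was higher under quisinostat, 10 were lower for mivebresib against romidepsin and 6 for mivebresib against quisinostat. The shares over all genes were 25.5%, 29.8% and 34.8% in that order. At an adjusted p below 0.01, 1 was higher under quisinostat and 1 under mivebresib, beside 21% and 14.3% of all genes. For mivebresib against romidepsin 6 were higher and 2 lower, beside 15.6% and 18%. For quisinostat against romidepsin 4 were lower, beside 7.5%. With limma on the quantile-normalized values, 1, 12 and 2 were lower under romidepsin, quisinostat and mivebresib and 0 higher under quisinostat or mivebresib. Over all genes 2.73%, 8.25% and 9.75% were then lower, and 10.8% and 9.17% higher under quisinostat and mivebresib. The lower counts for romidepsin and mivebresib were thus near or below these shares. For quisinostat against romidepsin this limma fit gave 0 higher and 4 lower, beside 5.78% and 3.4% of all genes. For mivebresib against romidepsin it gave 0 and 0, beside 7.13% and 9.67%. Over all genes, lower calls under romidepsin went from 2377 to 1116 in the fit of 4 libraries, 1200 at 0.01 and 412 with the quantile-normalized values.

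Leaving out 1 library at a time gave 0 to 1 higher, 12 to 19 lower and a median of -0.49 to -0.33 under romidepsin, 1 to 2, 23 to 25 and -0.65 to -0.56 under quisinostat, and 2 to 5, 13 to 18 and -0.32 to -0.21 under mivebresib. The same ranges were 2 to 3, 5 to 15 and -0.28 to -0.20 for quisinostat against romidepsin, 6 to 16, 2 to 10 and 0.16 to 0.22 for mivebresib against romidepsin, and 12 to 21, 3 to 6 and 0.27 to 0.33 for mivebresib against quisinostat. A group left with 1 library was taken to vary like the others.

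The difference of replicate 2 minus replicate 1 correlated between groups at -0.162 to 0.158 over genes. Among DMSO, quisinostat and mivebresib the correlations were positive (0.146, 0.158 and 0.064), and those with romidepsin were negative. With 1 such difference per group, these values cannot decide whether libraries of the same number belong together. With a replicate block, 0 members were higher and 19 lower under romidepsin (median -0.41), 3 and 25 under quisinostat (-0.58) and 3 and 17 under mivebresib (-0.26). Over all genes 14.8%, 27.8% and 22% were then higher and 15.3%, 24.9% and 23.9% lower, in that order. RAD51D lost and BLM gained its call under romidepsin, RAD50 gained one under quisinostat and RAD51B under mivebresib. Quisinostat against romidepsin gave 3 and 13 (-0.20), mivebresib against romidepsin 13 and 7 (0.21) and mivebresib against quisinostat 19 and 4 (0.31). The shares of all genes in these comparisons were 20.3%, 23.3% and 26.1% higher and 14.4%, 24.9% and 31.3% lower.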
